A study of Homo sapiens with 2 samples.

Results

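The 10 genes described here encode the subunits of the transcription factor NF-kB (NFKB1, NFKB2, REL, RELA and RELB), its inhibitors (NFKBIA, NFKBIB and NFKBIE) and products induced by tumour necrosis factor (TNF) that include a feedback regulator (TNFAIP2 and TNFAIP3). They were chosen by gene symbol, and all 10 had 1 entry each among the 50867 genes of the deposited table. RNA came from HCT116, an established human colorectal carcinoma line, transfected with an siRNA against PHF5A or with a control siRNA. PHF5A is a subunit of the SF3b splicing complex. There was 1 library per group, so differences between the groups cannot be set against a spread between replicates, and no p-values appear. The labels give neither the siRNA sequence nor the time after transfection.

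NF-kB is a family of dimeric transcription factors built from the products of the 5 subunit genes. In resting cells the dimers are held in the cytoplasm by inhibitor proteins of the IkB family, and a kinase complex activated by TNF and other signals marks the inhibitors for destruction. The freed dimers then switch on many genes, among them genes of the pathway itself. The inhibitor gene NFKBIA and the ubiquitin-editing enzyme gene TNFAIP3 (A20) are classical negative feedback targets.

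The PHF5A knockdown library held 25897412 counts and the control library 26552789. PHF5A itself had 91 counts in the knockdown and 367 in the control library, 3.93-fold lower per library total (3.12 to 5.0). Ratios of counts scaled to the library total (CPM) carry a 95% exact conditional binomial interval, which reflects counting error alone, since reads may share a source molecule. Of 14 markers of colon epithelium, 8 were present with at least 501 counts in the higher library, including KRT8, KRT18, KRT19, EPCAM and CDX2, and 6 had at most 6 counts in either library, including VIL1 and KRT20. The libraries also differed in the counts of heart muscle markers, and where those reads came from was not tested. All 22 heart muscle markers took a smaller share of the knockdown counts, with 344 counts in sum in the knockdown and 101981 in the control library, and 12 of the 22 were at 0 in the knockdown library. The small noncoding RNAs 7SL, RN7SK and RPPH1 held 25.2% of the knockdown counts and 16.2% of the control counts. Genes that reached 1 deposited FPKM in at least 1 library are called expressed below. Over these 8957 genes the median log2 ratio of knockdown to control was -0.15 (FPKM + 1), and the median CPM ratio was 0.875 over the 8861 of them counted in both libraries. In bulk RNA, fewer cells of a type and less RNA per cell cannot be told apart.

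NF-kB dimers bind short DNA elements called kB sites, and several family genes carry such elements near their starts. The spellings GGGNNTTTCC, found in 1.91% of all 35114 windows, and GGGNNTTCCC, found in 2.17%, were searched on both strands in the RefSeq windows of 250 bases before to 50 after a gene's start (GRCh38.p14). The spellings can overlap each other, as they do in 1 stretch of NFKB2. Windows were at hand for 8 of the 10 genes and not for RELB and NFKBIE. At least 1 match of either spelling stood in a window of 6 of the 8, against 4.71% of the 27303 genes with a window. Each stretch below is 30 bases of the gene's own strand, shown because these are the candidate binding elements of the family genes measured here, with the matched letters in capitals.
NFKB1, chr4:102501300-102501329, + strand: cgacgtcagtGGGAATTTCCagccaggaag
NFKB2, chr10:102394461-102394490, + strand: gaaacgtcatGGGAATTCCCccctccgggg
NFKB2, chr10:102394491-102394520, + strand: ggccgagaaGGGGCTTTCCCggccctgagc
NFKB2, chr10:102395674-102395703, + strand: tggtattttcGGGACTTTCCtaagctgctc
REL, chr2:60881518-60881547, + strand: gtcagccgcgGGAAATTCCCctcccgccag
NFKBIA, chr14:35404811-35404840, - strand: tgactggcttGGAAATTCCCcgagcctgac
NFKBIB, chr19:38899931-38899960, + strand: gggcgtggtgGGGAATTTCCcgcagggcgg
TNFAIP3, chr6:137867188-137867217, + strand: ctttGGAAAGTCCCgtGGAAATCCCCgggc

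The match lay 49 bases before the RefSeq start in NFKB1, 46 in REL, 81 in NFKBIA and 28 in the NFKBIB window that held one. TNFAIP3 held a pair of matches, 67 and 55 bases before the start, both read on the opposite strand, as those of REL and NFKBIA were. NFKB2 had matches in 2 of its 3 windows; a further match of the second spelling, 176 bases before a start, is not printed. The windows of RELA and TNFAIP2 held neither spelling. RefSeq starts and the starts of the deposited entries, given below, are not the same. By the deposited coordinates the printed matches of NFKB2, REL, NFKBIB and TNFAIP3 lie inside the entry, and those of NFKB1 and NFKBIA before it. A match of letters is a description of the window and not a measured binding site. The 6 genes with a match did not lie on 1 side of the median gene in the knockdown library, as their values below show.

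Levels can be compared between genes only per length, and the deposited FPKM divides by an unusual length. For 86% of 13419 genes with at least 50 counts, the length implied by count and FPKM was, within 0.1%, the sum of every distinct annotated exon of the gene in GENCODE release 29, overlapping exons counted each time. This held for 7 of the 10 NF-kB genes. RELA has 27 annotated transcripts and 62 distinct exons, and its implied length was 17908 bases, against 5464 bases of merged exons, a 3.28-fold difference. For NFKBIA the lengths were 6983 and 2373 bases, 2.94-fold apart. REL, with 3 transcripts, was at 0.962. The deposited FPKM therefore understates RELA and NFKBIA beside genes with few isoforms. It leaves each gene's ratio between libraries as it is, apart from the added 1. Levels are given below on both scales, the second being FPKM recomputed from the counts with merged exon lengths.

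On the recomputed scale NFKB2 and RELA were the most abundant of the 10 transcripts in both libraries. NFKB2, which encodes p100, the precursor of the p52 subunit, stood at 30.8 FPKM in the knockdown and 37.6 FPKM in the control library. RELA, which encodes p65, the transactivating partner of the classical dimer, stood at 27.2 FPKM in the knockdown and 31.7 FPKM in the control library. As deposited, RELA stood at 8.31 FPKM in the knockdown and 9.69 FPKM in the control library, behind NFKB2 (20.3 and 24.8 FPKM) in both, NFKBIB in the knockdown and TNFAIP2 in the control library. In the knockdown library the order went on with NFKBIB at 21.6 FPKM, then RELB (16.8), NFKBIA (16.8) and NFKBIE (16.4), whose exact Poisson intervals overlap, then TNFAIP2 at 8.68. In the control library it went on with TNFAIP2 at 23.3 and NFKBIA at 21.8 FPKM, with overlapping intervals, then NFKBIE at 17.9 and NFKBIB at 17.1, also overlapping, and RELB at 12.2. NFKB1, TNFAIP3 and REL came eighth, ninth and last in both libraries. The order thus differed between libraries only in its middle, where TNFAIP2 stood 7th in the knockdown and 3rd in the control library.

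**Figure D1:**
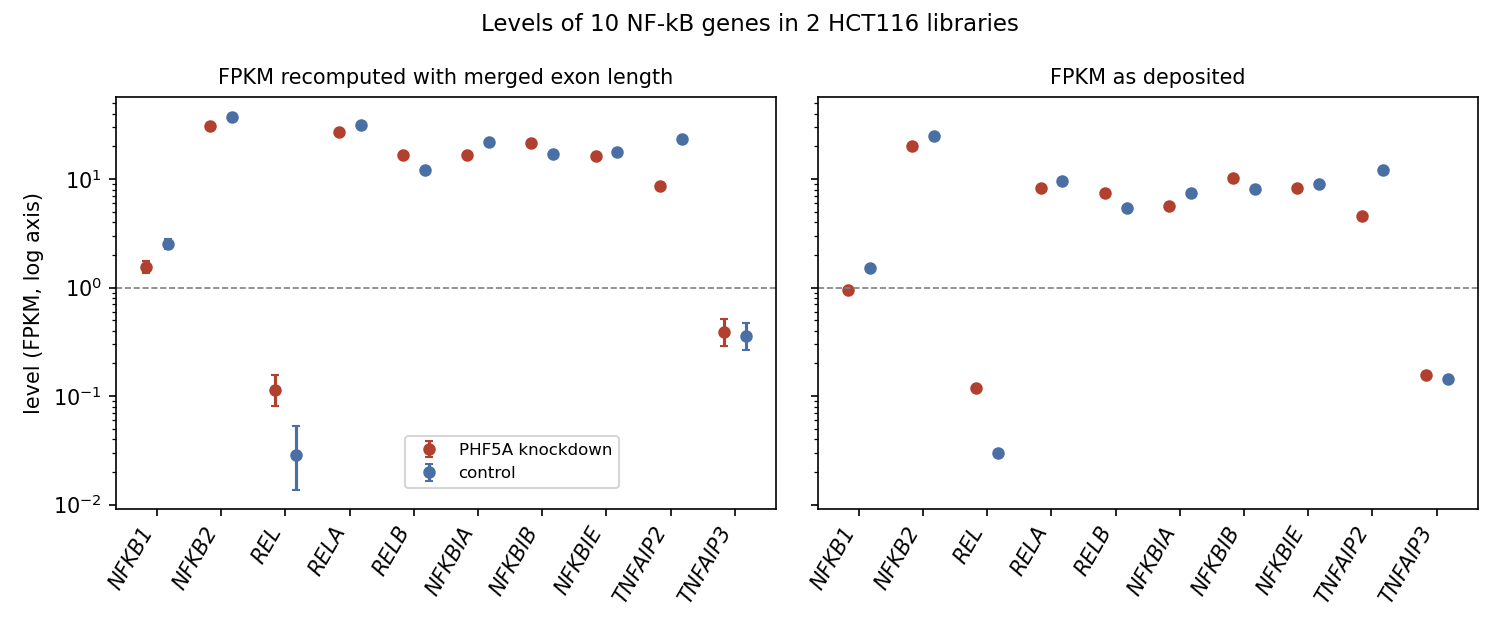
Level of each gene (FPKM, log axis) in the PHF5A knockdown (red) and control (blue) library, recomputed with merged exon lengths (left, bars are 95% exact Poisson intervals for counting error) and as deposited (right). The dashed line marks 1 FPKM; REL and TNFAIP3 lie below it in both libraries, and TNFAIP2 shows the widest gap of the abundant genes, 8.68 FPKM against 23.3.

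Of the 8 expressed genes, 1 was at least 2-fold lower in the knockdown library on the log2(FPKM + 1) scale, TNFAIP2, and 0 were at least 2-fold higher. Among all expressed genes 6.2% were at least 2-fold lower and 2.53% at least 2-fold higher, so that 1 of 8 is a count too small to set apart from the rest. At 1.5-fold the counts for the 8 genes stayed at 1 and 0, where all expressed genes gave 18.2% lower and 8.45% higher. The median log2 ratio of the 8 was -0.24, which is 0.09 below that of all expressed genes (a difference of -0.09). Counting intervals lay below 1 for 6 of the 8 and above 1 for 2. They lay below 1 for 50.7% of all expressed genes and above 1 for 28.4%, so at this depth a counting interval that leaves out 1 is common.

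**Figure D2:**
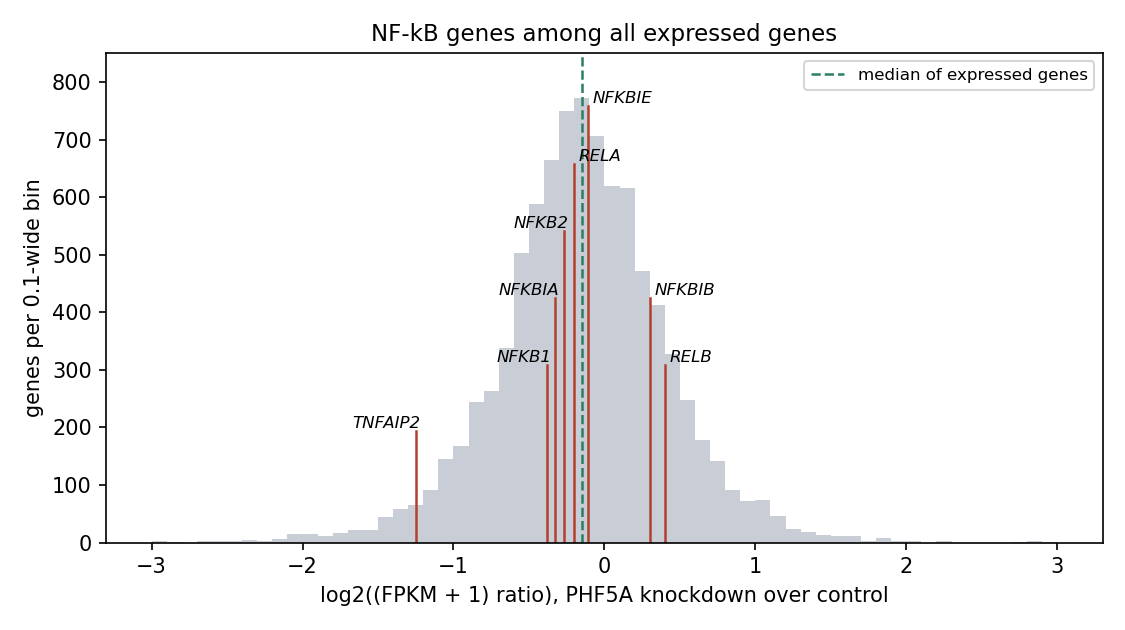
Histogram of the log2 ratio of knockdown to control (FPKM + 1) over the expressed genes, in bins of 0.1, with the 8 expressed NF-kB genes marked; 29 genes beyond 3 in size are not drawn. TNFAIP2, at -1.25, is the only one of the 8 outside the central part of the histogram, and RELB, at 0.40, is the highest.

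Among the subunits, RELA of the classical dimer stood close to the median gene and NFKB1 below it. NFKB1 (ENSG00000109320, chromosome 4, 102501329 to 102617302, + strand, GRCh38), which encodes p105, the precursor of p50, had 253 counts in the knockdown and 420 in the control library, or 0.946 and 1.53 FPKM as deposited. In CPM it was lower by a factor of 1.62 in the knockdown library (1.38 to 1.90), and 22.8% of expressed genes had a lower ratio. RELA (ENSG00000173039, chromosome 11, 65653596 to 65663094, - strand) had 3854 counts in the knockdown and 4606 in the control library, a CPM ratio of 0.858 (0.822 to 0.896). That lies near the middle of the expressed genes, of which 48.4% had a lower ratio. Over 9 settings of scaling, pseudocount and gene length, RELA ran from -0.13 to 0.02 around the median of expressed genes (log2). Subtracting that median removes most of any difference in library scaling, so narrow ranges of this kind are no test of it. Per count, NFKB1 was 0.0656 of RELA in the knockdown and 0.0912 in the control library. This quotient within a library does not depend on how libraries are scaled, and it was 0.72 of the control value in the knockdown library (exact conditional interval 0.61 to 0.849).

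In the alternative branch, in which p52 pairs with RelB, RELB lay above the median gene and NFKB2 slightly below it. NFKB2 (ENSG00000077150, chromosome 10, 102394110 to 102402529, + strand) had 3581 counts in the knockdown and 4478 in the control library, a CPM ratio of 0.82 (0.784 to 0.857). Of expressed genes, 43.9% had a lower ratio. NFKB2 over RELA was 0.956 of the control value in the knockdown library, with an interval that spans 1 (0.898 to 1.02). RELB (ENSG00000104856, chromosome 19, 45001430 to 45038198, + strand) had 1323 counts in the knockdown and 985 in the control library, a ratio of 1.38 (1.27 to 1.5), and 83.4% of expressed genes had a lower ratio. RELB was the highest of the expressed subunits relative to the median gene, by 0.51 to 0.70 on the log2 scale over the same 9 settings. The quotient of NFKB2 to RELB counts was 2.71 in the knockdown and 4.55 in the control library, a change to 0.595 of the control value (0.542 to 0.654). RELB over RELA was 0.343 in the knockdown and 0.214 in the control library, 1.61 times the control value (1.46 to 1.76). Of the summed subunit mRNA per length, RELB made up 22.0% in the knockdown and 14.5% in the control library, NFKB2 40.3% and 44.7%, RELA 35.6% and 37.7%, and NFKB1 2.04% and 3.0%.

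REL (ENSG00000162924, chromosome 2, 60881521 to 60931610, + strand), which encodes c-Rel, a subunit known mainly from lymphocytes, was almost absent. It had 39 counts in the knockdown and 10 in the control library, or 0.119 and 0.0297 FPKM. The CPM ratio of its own entry was 4.0, with an interval of 1.96 to 8.98. The last 5702 bases of REL are also covered by the entry RP11-373L24.1, a noncoding RNA annotated on the same strand, which had 6 counts in the knockdown and 32 in the control library, a CPM ratio of 0.192 (0.0657 to 0.466). Both entries summed to 45 counts in the knockdown and 42 in the control library, a ratio of 1.1 with an interval of 0.705 to 1.71. The difference in the entry of REL was thus not seen in this sum, in which 32 of the 42 control counts came from the noncoding entry. No source used here says how reads that match both entries were assigned, so whether REL itself differed cannot be told.

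**Figure D3:**
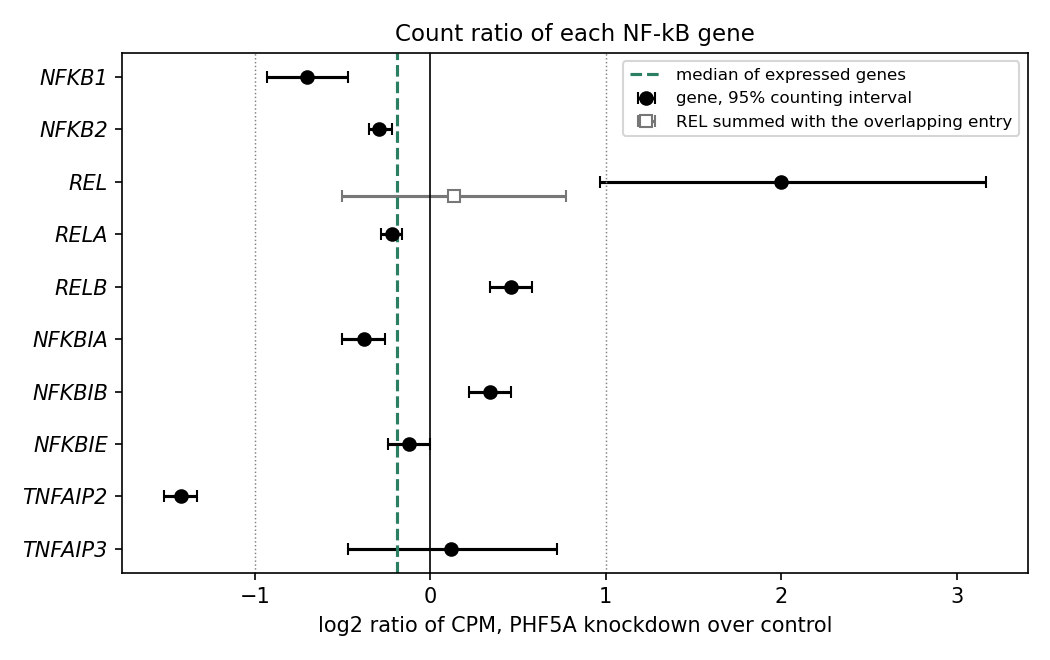
Log2 ratio of CPM, PHF5A knockdown over control, for each gene (circles) with its 95% exact interval for counting error; dotted lines mark 2-fold, the dashed line the median of expressed genes (-0.19). TNFAIP2 lies below the lower 2-fold line at -1.42, REL stands at 2.0 by its own entry, and the open square shows REL summed with the overlapping entry, whose interval spans 0.

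Among the inhibitors, NFKBIA and NFKBIB stood on opposite sides of the median gene. NFKBIA (ENSG00000100906, chromosome 14, 35401511 to 35404749, - strand), which encodes IkB-alpha, the rapidly degraded and resynthesised inhibitor, had 1030 counts in the knockdown and 1376 in the control library. These were 5.7 and 7.42 FPKM, a CPM ratio of 0.767 (0.707 to 0.833), and 38.2% of expressed genes had a lower ratio. NFKBIB (ENSG00000104825, chromosome 19, 38899700 to 38908893, + strand), which encodes IkB-beta, had 1302 counts in the knockdown and 1056 in the control library. These were 10.2 and 8.04 FPKM, a ratio of 1.26 (1.16 to 1.37), and 78.9% of expressed genes had a lower ratio. Its log2 ratio lay above the median of all genes by 0.39 to 0.58 over the 9 settings, although after rescaling to an equal sum over genes (TPM) it was -0.08. NFKBIE (ENSG00000146232, chromosome 6, 44258166 to 44265788, - strand), which encodes IkB-epsilon, had 1099 counts in the knockdown and 1226 in the control library, a ratio of 0.919 (0.846 to 0.998). Its log2 ratio ran from -0.02 to 0.12 around the median gene over the 9 settings.

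The quotient of NFKBIB to NFKBIA was 1.26 in the knockdown and 0.767 in the control library, 1.65 times the control value (1.47 to 1.85). NFKBIE over NFKBIA was 1.07 in the knockdown and 0.891 in the control library, 1.2 times the control value (1.07 to 1.35). Per length, NFKBIB made up 39.5% of inhibitor mRNA in the knockdown and 30.1% in the control library, NFKBIA 30.6% and 38.4%, and NFKBIE the rest. The inhibitors as a sum differed less. NFKBIA, NFKBIB and NFKBIE together had 3431 counts in the knockdown and 3658 in the control library, or 0.89 and 0.794 per RELA count, 1.12 times the control value (1.05 to 1.19). Against all 5 subunits the quotient was 0.379 in the knockdown and 0.348 in the control library, 1.09 times the control value (1.03 to 1.15). The first 163 bases of NFKBIB are shared with SIRT2 on the opposite strand, which had 778 counts in the knockdown and 809 in the control library; whether reads were counted by strand is not known here, so a small part of the NFKBIB counts is uncertain.

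**Figure D4:**
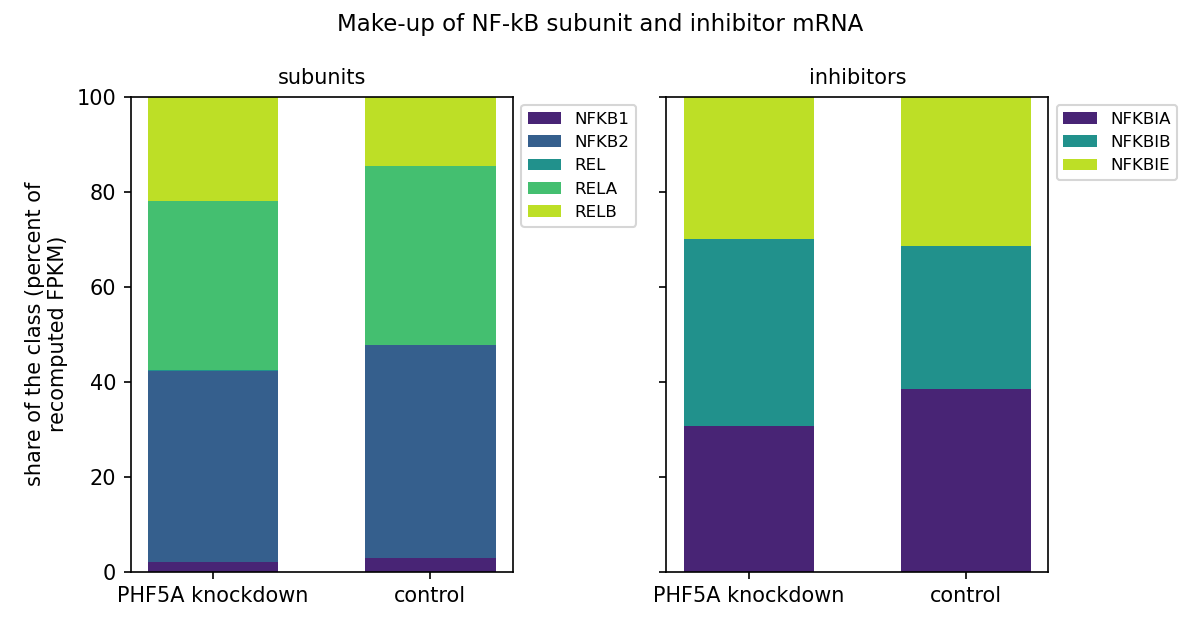
Share of each gene in the summed subunit mRNA (left) and inhibitor mRNA (right), in percent of FPKM recomputed with merged exon lengths, for the PHF5A knockdown and the control library. RELB takes 22.0% of the subunit mRNA in the knockdown and 14.5% in the control library, and NFKBIB 39.5% and 30.1% of the inhibitor mRNA; REL, at under 1%, is too thin to see.

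TNFAIP2 showed the widest difference of the 8 expressed genes. TNFAIP2 (ENSG00000185215, chromosome 14, 103123442 to 103137439, + strand), a TNF-induced gene whose product takes part in forming membrane protrusions, had 1131 counts in the knockdown and 3112 in the control library. Its deposited FPKM was 4.52 in the knockdown and 12.1 in the control library, a log2 ratio of -1.25. The CPM difference was 2.68-fold (2.51 to 2.88), lower in the knockdown library, and 6.21% of expressed genes had a lower ratio. Per RELA count it was 0.293 in the knockdown and 0.676 in the control library, 0.434 of the control value (0.40 to 0.471). No other entry of the table overlaps it. TNFAIP2 is also known from endothelial and myeloid cells. Of 14 markers of blood and endothelium, 4 were at 0 in the knockdown and 4 in the control library, and their sum was 576 counts in the knockdown and 875 in the control library. Most of that sum was CD68 (361 and 518 counts) and VWF (141 and 284 counts). The others had few counts and went both ways. PTPRC (1 and 6), CDH5 (0 and 10) and KDR (7 and 18) had fewer in the knockdown library. CD14 (26 and 16) and HBA1 (25 and 9) had more, and PECAM1 had 4 and 4. Of the 14, 6 took a smaller share of the knockdown counts. The heart muscle markers, 344 against 101981 counts, were lower in the knockdown library too. So were 10 of 11 fibroblast markers (933 and 3014 counts in sum). Of these 10, PDGFRB hardly differed (42 and 44 counts), and the median CPM ratio of all expressed genes was itself 0.875. The part of cells with heart muscle, fibroblast, blood or endothelial markers in the TNFAIP2 result was not tested.

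TNFAIP3 (ENSG00000118503, chromosome 6, 137867188 to 137883312, + strand), despite its pair of kB matches, was below 1 FPKM in both libraries. It had 51 counts in the knockdown and 48 in the control library, or 0.157 and 0.144 FPKM, a CPM ratio of 1.09 with an interval of 0.72 to 1.65. Any difference smaller than that interval was not detectable at this depth. The antisense entry RP11-356I2.4, which overlaps its first 1046 bases, had 2 counts in the knockdown and 0 in the control library. Among family genes known as NF-kB targets, the CPM ratio was 0.767 for NFKBIA, 0.82 for NFKB2 and 0.618 for NFKB1, beside a median of 0.875 for expressed genes. The TNF-induced TNFAIP2 stood at 0.373. For NFKBIA and NFKB2, 38.2% and 43.9% of expressed genes had a lower ratio. RELB, at 1.38, had an interval above 1 (1.27 to 1.5). Of the other family genes, so did NFKBIB, at 1.26 (1.16 to 1.37), and the entry of REL, at 4.0 (1.96 to 8.98). The difference of REL was not seen in the sum with its overlapping entry. NFKBIE, at 0.919, lay above the median. The interval of TNFAIP3, at 1.09, spans 1 and gives no direction.

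Around these genes, 137 further genes of the pathway were sorted by role into 7 lists, and 71 of them were expressed. At least 2-fold lower in the knockdown library were 3 of the 71 (4.23%) and 0 were at least 2-fold higher, against 6.2% and 2.53% of all expressed genes. By CPM ratio 10 genes (14.1% of the 71) passed 2-fold downward and 1 upward, against 13.9% and 5.72% of all expressed genes. The share of lower pathway genes is therefore near that of all genes, and it lay below it in 8 and above it in 5 of 13 other settings. Their median log2 ratio was -0.10. Of the 84 genes that the deposited table itself assigns to the NF-kappa B signaling pathway, 6 are among the 10 genes and 78 are not. Of these 78, 31 were expressed, 2 were at least 2-fold lower and 0 higher, with a median of 0.01. That list was taken up after the table was seen.

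Receptors and adaptors upstream of the kinase complex differed in both directions, with 0 of 8 expressed receptors and 0 of 22 expressed adaptors and ubiquitin ligases past 2-fold either way with 1 added to the FPKM, where 6.2% of all expressed genes were lower and 2.53% higher. TNFRSF12A, the receptor of TWEAK, had 143 FPKM in the knockdown and 103 in the control library (CPM ratio 1.38, interval 1.34 to 1.42). TNFRSF1A, the main TNF receptor, had 16.3 FPKM in the knockdown and 20.2 in the control library (0.806, 0.772 to 0.841). The Toll-like receptor adaptor TICAM1 stood at 30.8 and 30.7 FPKM, and IRAK1, a kinase that acts below the interleukin-1 receptor, at 26.2 FPKM in the knockdown and 18.1 in the control library. By CPM ratio, 3 of the 22 adaptors and ligases (13.6%) passed 2-fold downward and 1 upward, against 13.9% and 5.72% of all expressed genes. The downward share is thus near that of all genes, and these 4 genes are named here after their values were seen. UBE2N, a ubiquitin-conjugating enzyme, had 318 counts in the knockdown and 882 in the control library, 2.71-fold lower (2.38 to 3.08). NOD1, a sensor of bacterial peptidoglycan, had 154 counts in the knockdown and 398 in the control library, 2.52-fold lower (2.09 to 3.06). MYD88, the shared adaptor of Toll-like and interleukin-1 receptors, had 575 counts in the knockdown and 1439 in the control library, 2.44-fold lower (2.21 to 2.69). The higher one was TRADD, the adaptor of the TNF receptor, with 512 counts in the knockdown and 255 in the control library, a CPM ratio of 2.06 (1.77 to 2.40). With 1 added to the FPKM the log2 ratios of these 4 genes lay between -0.97 for MYD88 and 0.75 for TRADD, inside the 2-fold lines.

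Of 6 expressed kinases 0 passed 2-fold with 1 added to the FPKM or by CPM, where 13.9% of all expressed genes were lower by CPM. Of all 13 kinases, 10 took a smaller share of the knockdown counts, but the median CPM ratio of all expressed genes was itself 0.875. Of the 6 expressed kinases, 4 lay above the median gene, with a median log2 ratio of -0.10 against -0.15. IKBKB, a catalytic subunit of the IkB kinase complex, is named after its values were seen. It had 227 counts in the knockdown and 538 in the control library, 2.31-fold lower by CPM (1.98 to 2.71). It stayed under 1 FPKM as deposited but stood at 0.78 in the knockdown and 1.8 in the control library with merged exon lengths. That it is not among the 6 thus depends on the deposited length. TAB1, an activator of the kinase TAK1, had 11.1 FPKM in the knockdown and 10.3 in the control library. MAP3K14 (NIK), the kinase that starts processing of p100 in the alternative branch, had 5.43 FPKM in the knockdown and 8.09 in the control library, a CPM ratio of 0.671 (0.627 to 0.718). Of 13 expressed negative regulators 0 passed 2-fold with 1 added, and 1 did by CPM, a share of 7.69% against 13.9% of all expressed genes. That gene was NLRC5, a regulator of the pathway and of antigen presentation genes, with 321 counts in the knockdown and 770 in the control library, 2.34-fold lower (2.05 to 2.67). TNIP2, which binds A20, had 12.7 FPKM in the knockdown and 13.5 in the control library. ZC3H12A, an RNase that degrades cytokine mRNAs, had 13.8 FPKM in the knockdown and 16.9 in the control library. Among the other proteins of IkB type, BCL3, a nuclear partner of p50 and p52 dimers, had 550 counts in the knockdown and 1256 in the control library, 2.23-fold lower by CPM (2.01 to 2.47) with a log2 ratio of -0.97. NFKBIL1, an IkB-like gene, had 1875 counts in the knockdown and 1050 in the control library, a CPM ratio of 1.83 (1.70 to 1.98). NFKBIZ, below 1 deposited FPKM and named after its values were seen, had 136 and 69 counts, a ratio of 2.02 (1.5 to 2.74). Of the 4 genes of this list, 1 took a smaller share of the knockdown counts.

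The known target genes differed between the lists. Of 27 cytokine, adhesion and protease targets, 3 were expressed and 8 had no count in either library. Of the 3 expressed, 1 was at least 2-fold lower (33.3%, against 6.2% of all expressed genes), a count too small to set apart from the rest. It was PLAU, the urokinase gene, with 15.3 FPKM in the knockdown and 64.9 in the control library (4.25-fold lower by CPM, 4.04 to 4.47). ICAM1, an adhesion molecule, had 3.41 FPKM in the knockdown and 3.70 in the control library, and CSF1, the macrophage growth factor, 1.64 and 1.04. VCAM1, singled out after its values were seen, had 0 counts in the knockdown and 167 in the control library. CXCL8, chosen in the same way and also below 1 deposited FPKM, went the other way. It had 41 counts in the knockdown and 15 in the control library, a CPM ratio of 2.8 (1.52 to 5.45). Of the 27 targets, 12 took a smaller share of the knockdown counts. The fibroblast markers were not alike: LUM had 0 and 60 counts and COL3A1 31 and 959, but PDGFRB had 42 and 44 and DCN 9 and 8. The part of these and of the heart muscle markers in the results for PLAU and VCAM1 was not tested. Of 17 expressed survival and signalling targets, 2 were at least 2-fold lower (11.8%, against 6.2% of all expressed genes) and 6 at least 1.5-fold lower (35.3%, against 18.2%). Their median log2 ratio was -0.35, which differs from that of all expressed genes by -0.20, and 12 of the 17 lay below the median gene. CD83, an activation marker of dendritic cells, had 39 counts in the knockdown and 168 in the control library, 4.2-fold lower (2.95 to 6.12). TAP1, the peptide transporter of antigen presentation, had 6.9 FPKM in the knockdown and 14.9 in the control library, 2.17-fold lower (2.01 to 2.34). The other 4 of the 6, named after their values were seen, were SAT1, B2M, IRF1 and CCND1. SAT1, an enzyme of polyamine breakdown, had 134 counts in the knockdown and 308 in the control library, 2.24-fold lower by CPM (1.82 to 2.77). B2M, the light chain of MHC class I, had 468 counts in the knockdown and 977 in the control library, 2.04-fold lower (1.82 to 2.28). IRF1, an interferon-regulated transcription factor, was 1.82-fold lower (1.66 to 2.01), and CCND1, cyclin D1, was 1.54-fold lower (1.49 to 1.58). IER3, an early response gene, was the most abundant target, at 515 FPKM in the knockdown and 494 in the control library, and FTH1, ferritin heavy chain, had 71.7 and 82.9.

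**Figure D5:**
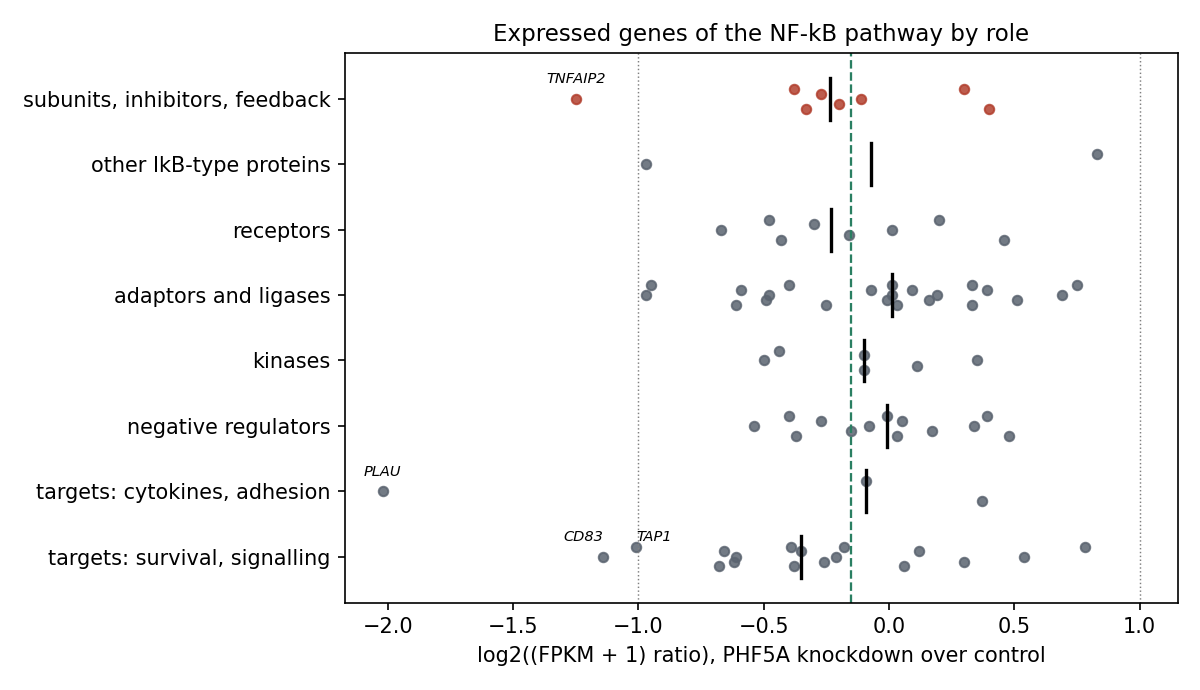
Log2 ratio of knockdown to control (FPKM + 1) of every expressed gene, by role in the pathway; black bars are list medians, the dashed line is the median of all expressed genes (-0.15), and dotted lines mark 2-fold. TNFAIP2, PLAU, CD83 and TAP1 lie past the lower 2-fold line, and no gene lies past the upper one.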

How the data were processed

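Total RNA was made into stranded libraries, per the labels' protocols, and HISAT2 2.0.4 and Cuffdiff were used with hg38 (GRCh38), per the submitters' processing notes. The authors deposited 1 count (whole numbers) and 1 FPKM per gene for each library, per the file headers. For the counting tool, strand setting and annotation release: not given in the sources used here. A record split across 2 lines was dropped. Log2 ratios were computed with 1 added to the deposited FPKM. A gene counted as expressed from 1 FPKM in either library, and higher or lower meant a 2-fold ratio, by size alone. Gene types and exon lengths came from GENCODE release 29, which matched 50110 genes by identifier. The 10 genes and the lists were chosen with earlier results of these data known. Named genes were the 10, every list gene past 2-fold and the 2 of highest FPKM among the rest of each list; the text says where another was chosen after its values were seen. Alternatives changed the scaling, pseudocount, minimum, threshold and gene length. Software was scipy 1.17.1 (exact intervals), pandas 2.3.3, numpy 2.4.6, matplotlib 3.10.9 and Python 3.11.15.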

Additional observations from a re-analysis of the deposited data

How the results depend on the processing

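No paired analysis was possible because each group holds a single library. TNFAIP2 was the 1 gene of the 10 at least 2-fold lower in each of the 13 other settings tried on the list; its log2 ratio lay between -1.68 and -1.05 over the 10 that change it, and 0 of the 10 were at least 2-fold higher except REL with CPM (prior 0.5). Knockdown over control, the quotient of inhibitor to RELA counts was 1.12, against 1.15 with FPKM and 1.09 with all 5 subunits in place of RELA. Merged exon lengths (FPKM, TPM), totals without small RNAs and the sum of REL with its overlapping entry (log2 ratio 0.14 in place of 2.0) were chosen after the data were seen. All expressed genes gave 227 higher and 555 lower, and pathway genes 0 and 3. A 1.5-fold threshold gave 757 and 1631, and 4 and 13. CPM gave 881 and 2536, and 3 and 20. The pathway share of lower genes exceeded that of all genes with CPM (19.0% against 18.0%), merged lengths (8.64% against 7.07%), a pseudocount of 0.1 (12.7% against 12.6%), a 1.5-fold threshold (18.3% against 18.2%) and no minimum (2.19% against 1.09%). A pseudocount of 0.1 gave 469 and 1129, and 1 and 9, and one of 0.5 gave 6 pathway genes lower. Median centring gave 345 and 358, with 1 pathway gene lower and a median log2 ratio of the 8 expressed NF-kB genes of -0.09, against -0.24. TPM gave 107 and 1405, 9 pathway genes lower and a median of -0.61, and TPM from merged lengths 120 and 1520, 11 and -0.61. Merged lengths gave 7 pathway genes lower, and a minimum of 5 FPKM 131 and 309 genes. Upper-quartile scaling gave 411 higher, 2 pathway genes higher and a median of -0.01, scaling to protein-coding counts 406 higher and -0.09, and totals without small RNAs 391 higher and -0.09. The share of calls that were higher ran from 7.08% (TPM) to 52.0% (upper quartile). The signs of RELA, NFKBIB, NFKBIE and TNFAIP3 depended on the scaling. REL and TNFAIP3 are limited by their low counts.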
